A study of Mus musculus with 6 samples.

Results

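The cells described here are the cornifying suprabasal cells of mouse esophageal organoids, defined by high levels of a small set of late squamous differentiation genes on top of the suprabasal keratin gene Krt13. Of 26808 barcodes, 25154 had 500 or more non-zero genes, and 22527 were left once cells with 2 or more of the mitotic genes Top2a, Mki67, Birc5 and Ube2c above 0 were dropped. Members had a deposited Krt13 value of 3 or more and lay at or above the 92nd percentile, over all cells left, of the mean deposited value of Calm4, Sprr1b, Krtdap, Slpi, Gm94, Fam25c and Rbp2. This rule gave 1269 members among 9537 Krt13-high cells. The other 8268 Krt13-high cells are the comparison population, and 12990 cells were Krt13-low. Members were chosen from measured values, so the levels of the rule genes, and of any gene in members against other cells, are given as descriptions. The 8 rule genes stayed in the tables fitted between Cyto-ID groups, and no result is read from their tests.

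Esophageal epithelial cells from C57BL6 mice were sorted for integrin-b1, a marker of basal cells, and against DAPI, a dye that enters dead cells. They were separated into a Cyto-ID High and a Cyto-ID Low group, Cyto-ID being a dye that labels autophagic vesicles in live cells, so the contrast asks how autophagic vesicle content of the founding basal cell bears on the organoid it forms. In both groups 500 to 1000 cells were seeded per well in Matrigel and grown for 15 days with EGF, Noggin, R-Spondin and the ROCK inhibitor Y27632, and all groups therefore share the medium and the inhibitor. Each group had 3 single-cell 3′ RNA libraries, labelled F2, M3 and F6; the labels used here do not say whether these came from separate animals, so p-values measure the spread between these libraries, which may be technical. Cyto-ID was read before culture, so the labels describe the seeded cells and not the members themselves.

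The libraries held 8457489 to 48957523 unique molecular identifiers (UMIs, counted RNA molecules), and members together held 9463585. Any pair of libraries shared 0 to 10 barcodes. The Cyto-ID Low F6 library stood apart for this population with only 9 members, under the minimum of 20, and it was left out of the gene fits except in 1 alternative that kept it; the fits otherwise use 3 Cyto-ID High and 2 Cyto-ID Low libraries, and values of Cyto-ID Low F6 are given as those of 9 cells.

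In a stratified squamous epithelium, basal cells expressing Krt5 and Krt14 divide, leave the basement membrane and switch to Krt13 and Krt4. In the last steps the cells build a cornified envelope: transglutaminases cross-link small proline-rich (Sprr) proteins, late cornified envelope (Lce) proteins and loricrin beneath the membrane, kallikrein-related proteases (Klk) later cut the desmosomes that hold the squames together, and inhibitors such as Slpi hold proteases back. Mouse esophagus keratinizes, but with keratins and envelope proteins that differ from those of skin.

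The members' name was checked against defining genes of cornification. Mean levels below are CPM, UMI counts scaled to 1000000 per cell and averaged over the cells of a library; 3′ libraries count molecules whatever the transcript's length. Lor, which encodes the envelope protein loricrin, was detected at 17.5 to 63.0 CPM in the members of the 5 libraries in the fits, against a mean of 4.79 CPM in the other Krt13-high cells, and it was higher in 6 of 6 libraries. Tgm1 (111 to 357 CPM) and Tgm3 (213 to 398 CPM), the transglutaminases that cross-link the envelope, were higher in members in 6 of 6 libraries as well. Ivl, encoding the envelope precursor involucrin, went the other way: it was lower than in the other Krt13-high cells in 6 of 6 libraries, with a mean of 7.73 CPM in members and 47.7 CPM in the others. The skin genes Krt1 (0 to 14.4 CPM) and Flg (0.947 to 24.5 CPM) were near the floor, and Krt10 reached 24.3 to 118 CPM. Lor, Tgm1 and Tgm3 thus went with the name and Ivl against it, and Krt1 and Flg, which mark cornification in skin, were low.

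To show the regulatory sequence next to the genes that define the population, promoters of 6 of the 7 markers were read. They come from the RefSeq promoter table (build GRCm38.p6, 250 bases before to 50 after the start). Gm94 was left out by choice, whether or not it has an entry. The start is that of the RefSeq entry. Gene intervals here and below come from GENCODE, another annotation, and can begin elsewhere. The pattern TGANTCA, with any base at N, is looser than the core to which AP-1 factors bind, which has C or G there. As a pattern it reads the same on both strands. It occurred in 3 of these 6 promoters, against 7.81% of 32851 promoters of the same length. The match was TGAGTCA in Krtdap, TGACTCA in Fam25c and TGAATCA in Sprr1b, so the Sprr1b match is not the stricter core. Krtdap lies at chr7:30787896-30791097 on the plus strand, and its match began 81 bases before the start. Sprr1b lies at chr3:92436809-92438789 on the minus strand, with its match 111 bases before the start. Fam25c lies at chr14:34351881-34355433 on the minus strand, with its match 105 bases before the start. These 3 promoters, at chr7:30787655-30787954, chr3:92438730-92439029 and chr14:34355344-34355643, are shown because they hold the shared match, in capitals, 5′ to 3′ on the gene's strand.
Krtdap: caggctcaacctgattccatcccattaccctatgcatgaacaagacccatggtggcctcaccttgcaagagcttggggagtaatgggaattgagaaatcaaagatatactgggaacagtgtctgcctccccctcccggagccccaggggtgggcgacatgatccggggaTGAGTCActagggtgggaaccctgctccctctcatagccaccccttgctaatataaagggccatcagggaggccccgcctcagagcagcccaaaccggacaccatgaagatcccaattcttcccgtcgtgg
Sprr1b: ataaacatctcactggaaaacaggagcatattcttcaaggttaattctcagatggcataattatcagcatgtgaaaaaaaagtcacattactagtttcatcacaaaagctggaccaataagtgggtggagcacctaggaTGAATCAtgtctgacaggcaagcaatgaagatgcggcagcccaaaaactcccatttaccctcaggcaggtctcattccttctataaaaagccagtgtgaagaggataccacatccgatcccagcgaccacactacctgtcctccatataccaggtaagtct
Fam25c: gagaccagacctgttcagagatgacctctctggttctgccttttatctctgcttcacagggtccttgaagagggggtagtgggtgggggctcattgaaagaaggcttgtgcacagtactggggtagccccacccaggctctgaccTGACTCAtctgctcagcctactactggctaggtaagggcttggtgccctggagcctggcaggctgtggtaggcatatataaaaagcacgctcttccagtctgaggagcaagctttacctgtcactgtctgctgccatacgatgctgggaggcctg
No TGANTCA was present in the windows of Calm4, Slpi and Rbp2. The Slpi and Rbp2 windows, chr2:164356458-164356757 and chr9:98490287-98490586, lie inside the gene intervals given below and not at their ends. The KLF-type core CACCC, on either strand, was present in 4 of 6 windows against 57.5% of all promoters, and TATAAA, on either strand, in 4 of 6 against 13.6%. CACCC and TATAAA did not overlap TGANTCA in the 3 promoters shown. A match describes letters and does not show that a factor binds there.

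Members made up a larger share of cells in every Cyto-ID High library than in any Cyto-ID Low library. In Cyto-ID High organoids they were 7.89% of cells left in F2 (291 members; 95% Wilson interval 7.07 to 8.81%), 10.98% in M3 (446 members; 10.06 to 11.98%) and 10.3% in F6 (407 members; 9.41 to 11.3%). In Cyto-ID Low organoids they were 1.33% in F2 (43 members; 0.988 to 1.78%), 1.45% in M3 (73 members; 1.16 to 1.82%) and 0.349% in F6 (9 members; 0.184 to 0.662%). The intervals cover counting error only. Group means were 9.73% ± 1.63 (SD, n = 3) and 1.04% ± 0.605 (SD, n = 3), a ratio of 9.32 and a difference of 8.69 percentage points, and the High library was above the Low library for 3 of 3 replicate labels. The groups did not overlap, and since the marker set was chosen with earlier results of these libraries known, no test is given.

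The share of Krt13-high cells as a whole did not follow the same order. Krt13-high cells were 45.7% ± 2.24 (SD, n = 3) of cells in Cyto-ID Low and 38.5% ± 12.7 (SD, n = 3) in Cyto-ID High organoids. Members were 3.01%, 3.02% and 0.782% of Krt13-high cells in the Cyto-ID Low F2, M3 and F6 libraries, and 24.5%, 20.6% and 34.3% of those in Cyto-ID High F2, M3 and F6. The 2 other suprabasal populations scored by the same 92nd-percentile rule had group means that ran the opposite way. Cells with high Il33, Aldh1a3, Aldh1a7 and Krt20, called Il33-type here, were 13.1% ± 2.58 (SD, n = 3) in Cyto-ID Low and 2.91% ± 0.950 (SD, n = 3) in Cyto-ID High organoids. Cells with high Sprr2f, Psca, Duoxa2 and Tspan1, called Sprr2f-type, were 10.2% ± 6.03 (SD, n = 3) and 3.72% ± 3.06 (SD, n = 3). Their shares overlapped between the groups, with 17.2%, 6.23% and 7.33% in Cyto-ID Low and 6.43%, 4.33% and 0.406% in Cyto-ID High (F2, M3, F6). Only 25 members were also Il33-type and 20 also Sprr2f-type.

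**Figure D1:**
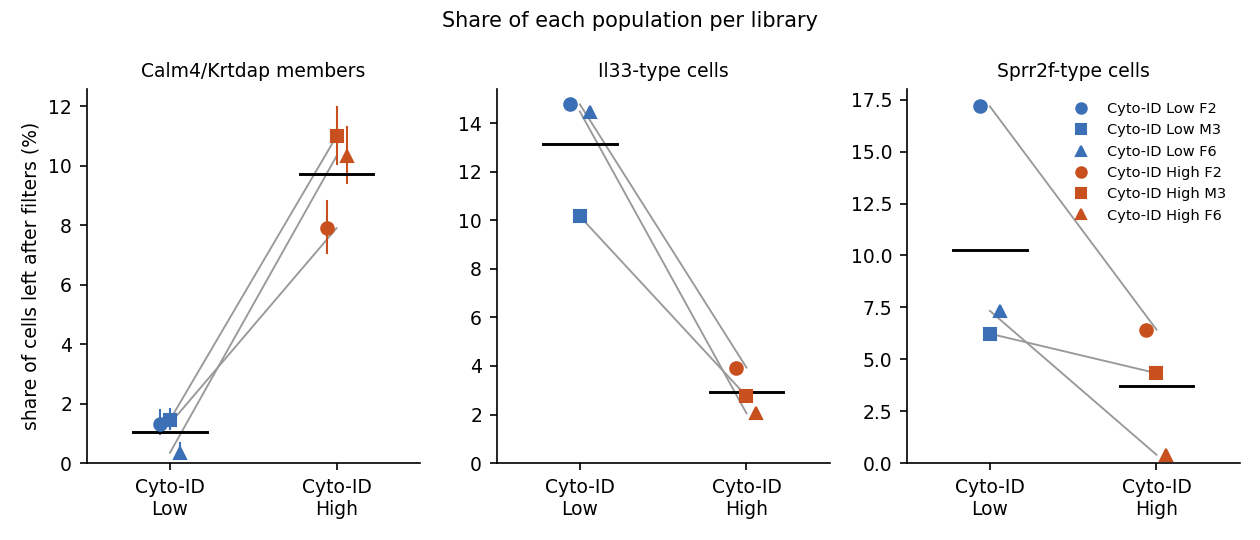
Share of cells left after filtering (percent, vertical axis) in each of the 3 Cyto-ID Low and 3 Cyto-ID High libraries for members, Il33-type and Sprr2f-type cells; grey lines join libraries with the same replicate label, black bars are group means, and vertical bars on the members' points are 95% Wilson intervals. Members lie between 0.349% and 1.45% in Cyto-ID Low and between 7.89% and 10.98% in Cyto-ID High libraries, without overlap.

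The share was recomputed under other rules. With a score that left Calm4 and Krtdap out, 1317 cells passed, 1143 of them members, and the difference was 8.19 percentage points; the remaining 5 markers were chosen with the same earlier results known. With no Krt13 gate it was 13.0 points, because 534 further cells passed the score with Krt13 under 3, of which 191, 46 and 282 came from the Cyto-ID High F2, M3 and F6 libraries and 13, 2 and 0 from the Cyto-ID Low libraries. With every cell thinned to 1000 UMIs it was 8.97 points, and without cells above the 95th percentile of UMIs of their library, where doublets would gather, it was 7.77 points.

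Krtdap, which encodes a small secreted protein of differentiating keratinocytes, was the most widely detected of the 7 markers. A Krtdap UMI was present in 98.7% of members (median depth 4134 UMIs per cell), 18.7% of the other Krt13-high cells (median 5249.5 UMIs) and 23.4% of Krt13-low cells (median 3686.5 UMIs). These shares and depths, and the detection shares of the genes below, pool the cells of all libraries. Of the other Krt13-high cells, 10.8%, 11.2% and 5.78% held it in Cyto-ID Low F2, M3 and F6 and 41.4%, 27.2% and 29.3% in Cyto-ID High. In Krt13-low cells it was present in 7.07%, 3.73% and 1.54% and in 46.2%, 25.9% and 41.5%. Members had more UMIs per cell than the other Krt13-high cells in every library. The mean level of Krtdap in members was 4665, 2453 and 2791 CPM in Cyto-ID Low F2, M3 and F6 and 6434, 4933 and 7562 CPM in Cyto-ID High F2, M3 and F6. Every Cyto-ID High library mean was above every Cyto-ID Low library mean, which does not order the single cells. Over the libraries in the fits, 6.62% of 5892 genes had all Cyto-ID High values above the Cyto-ID Low values. Krtdap is also part of the score that chose the members. In Krt13-low cells Krtdap stood at 43.3, 15.4 and 7.04 CPM in the Cyto-ID Low libraries and at 467, 361 and 1011 CPM in the Cyto-ID High libraries. The Krt13-low cells include those that passed the score under the Krt13 gate, which were chosen partly on Krtdap. These were 13, 2 and 0 cells in Cyto-ID Low F2, M3 and F6 and 191, 46 and 282 in Cyto-ID High. Their part in the Krt13-low levels and detection shares was not tested.

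Calm4, an epidermal calmodulin-like calcium sensor at chr13:3837757-3838673, was the sparsest marker. A Calm4 UMI was present in 35.7% of members, against 1.42% of the other Krt13-high cells and 2.04% of Krt13-low cells. Its level in members was 243, 245 and 0 CPM in Cyto-ID Low F2, M3 and F6 and 452, 696 and 361 CPM in Cyto-ID High F2, M3 and F6. All Cyto-ID High values were above all Cyto-ID Low values, and no UMI was found in the 9 members of Cyto-ID Low F6.

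Sprr1b, a cross-linked envelope precursor, had a UMI in 82.9% of members and 7.75% of the other Krt13-high cells. Its levels in members, 823, 724 and 388 CPM in Cyto-ID Low and 1226, 615 and 1418 CPM in Cyto-ID High (F2, M3, F6), overlapped between the groups. The protease inhibitor gene Slpi (chr2:164354070-164389095) overlapped too, with 3608, 1656 and 2154 CPM in Cyto-ID Low and 1342, 3162 and 1717 CPM in Cyto-ID High members. It was detected in 75.3% of members and 17.4% of the other Krt13-high cells. Gm94, a predicted protein-coding gene, gave 730, 166 and 180 CPM in Cyto-ID Low and 1017, 294 and 745 CPM in Cyto-ID High members. Fam25c gave 268, 188 and 58.8 CPM against 312, 211 and 619 CPM, and Rbp2 (chr9:98486115-98509781), a cellular retinol-binding protein gene, 454, 514 and 258 CPM against 349, 537 and 354 CPM. Krt13 (chr11:100117327-100121566), used as the gate, ran in the other direction, with 20372, 27566 and 24818 CPM in Cyto-ID Low and 11075, 18555 and 10187 CPM in Cyto-ID High members.

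**Figure D2:**
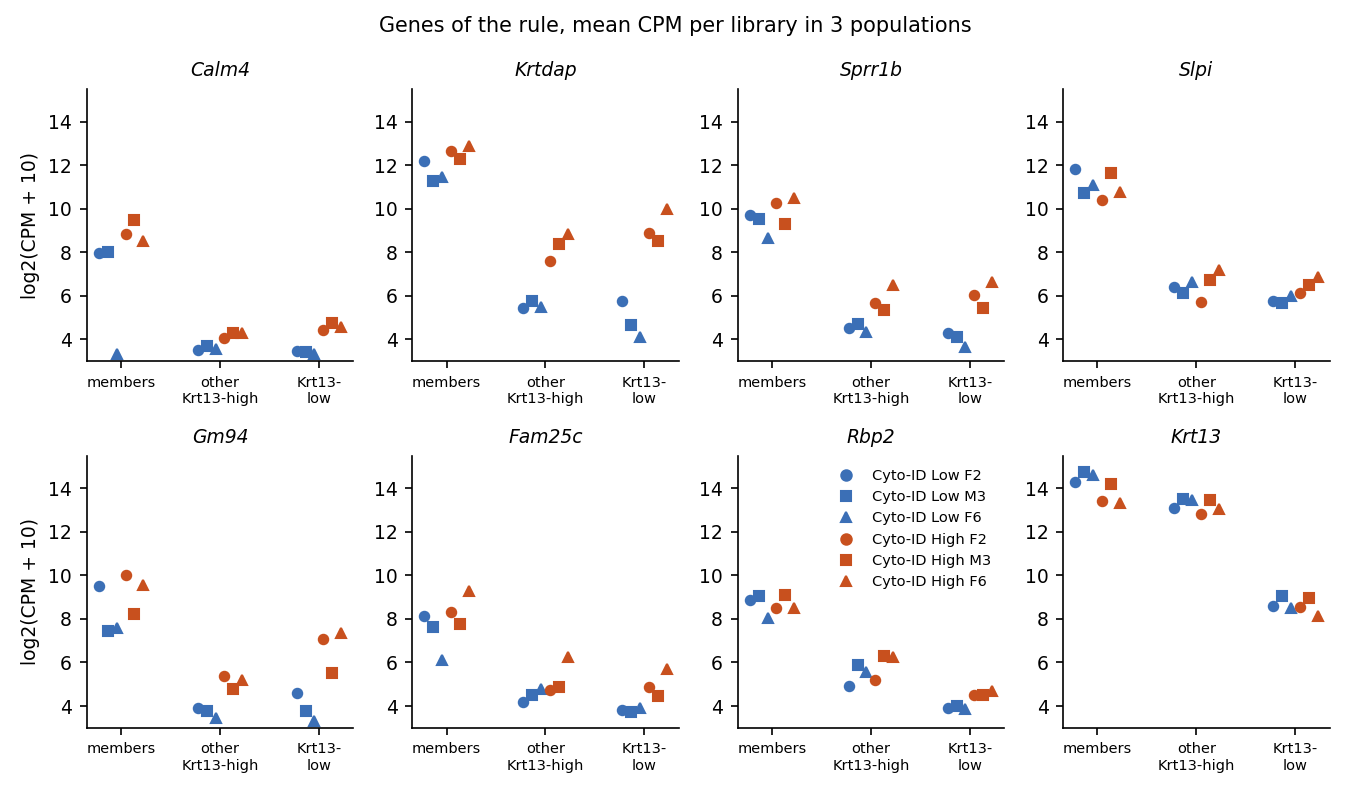
Mean level, as log2(CPM + 10), of the 7 marker genes and Krt13 in each library for members, other Krt13-high and Krt13-low cells; points are libraries, coloured by Cyto-ID group. In members Krtdap and Calm4 are higher in every Cyto-ID High library than in every Cyto-ID Low library, Krt13 is lower, and the other genes overlap.

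Against the other Krt13-high cells the rule genes were higher on the log2((members + 10)/(other + 10)) scale by a mean over libraries of 5.20 for Krtdap, 4.60 for Slpi, 4.48 for Sprr1b, 4.32 for Gm94, 3.80 for Calm4, 2.99 for Fam25c, 2.99 for Rbp2 and 0.86 for Krt13. Outside the rule, 2346 genes reached a mean of 50 CPM in 1 of the populations. Of these, 328 (14.0%) were higher in members in 6 of 6 libraries and 643 (27.4%) lower, with a median log2 difference of -0.14 over the 2346. The 6 libraries each compare cells of the same suspension, and members had more UMIs per cell than the other Krt13-high cells in every library, with medians of 2617 to 15445 against 1901 to 10322. The part of depth in these differences was not tested.

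Proteases of desquamation were among the genes with the largest positive differences. Klk10 was at 308 to 756 CPM across the 6 libraries in members and at 21.4 to 70.1 CPM in the other Krt13-high cells, a log2 difference of 3.58. Klk12, Klk14 and Klk13 were higher by 3.37, 3.33 and 2.78 on the same scale. Of 20 genes of cross-linking enzymes and epidermal proteases at 50 CPM or more, 11 were higher and 4 lower in 6 of 6 libraries, against 14.0% and 27.4% of all 2346 genes. Klk5, Klk6 and Klk7, kallikrein genes of skin desquamation, were close to 0. Capns2, a calpain small subunit gene, was higher by 2.88.

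Among 14 envelope precursors at 50 CPM or more, 3 were higher and 1 lower in 6 of 6 libraries, against 14.0% and 27.4% over all genes, so the higher count is near the background. Examples are Sprr2i at a log2 difference of 3.02 and the gene Sbsn, encoding the secreted keratinocyte protein suprabasin, at 2.59. Sprr2d (-2.07) and Sprr2f (-1.15) had negative mean differences, unlike Sprr2i.

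The largest positive difference outside the rule was that of Mt4, a metallothionein gene of stratified squamous epithelium, at a log2 difference of 4.44. Its level in members was 1411, 315 and 107 CPM in Cyto-ID Low F2, M3 and F6 and 3945, 2366 and 2456 CPM in Cyto-ID High F2, M3 and F6. In the other Krt13-high cells it reached 0 to 15.1 CPM in the Cyto-ID Low and 101 to 169 CPM in the Cyto-ID High libraries. The glutathione transferase gene Gsta1 was at 512 to 1205 CPM in members, a difference of 3.16, and Gm3776, a near-identical relative whose reads may be shared with it, was at 3.31. Among 18 glutathione and xenobiotic enzyme genes, 8 were higher and 3 lower in 6 of 6 libraries, against the same 14.0% and 27.4%.

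Of 11 lipid barrier genes at 50 CPM or more, 7 were higher and 3 lower in 6 of 6 libraries, against 14.0% and 27.4% of all 2346 genes, so that the lower count was near the share over all genes. Elovl4, which makes the very long fatty acids of barrier ceramides, was higher by 2.20, Alox12b, the lipoxygenase that oxidizes them, by 2.12, and Sult2b1, the sulfotransferase that makes cholesterol sulfate, by 2.18. Sptssb, encoding a subunit of the enzyme that starts sphingolipid synthesis, was higher by 2.74 and the aquaglyceroporin gene Aqp3 by 2.73. Fabp5, an epidermal fatty acid-binding protein gene, was at 47439, 52110 and 27824 CPM in Cyto-ID Low and 50983, 86479 and 43707 CPM in Cyto-ID High members (F2, M3, F6), against a mean of 11993 CPM in the other Krt13-high cells.

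Keratin genes differed in both directions. All 6 measured genes of the simple and atypical keratin list were lower in members in 6 of 6 libraries, against a background of 27.4%. Krt18, Krt19 and Krt7, typical of simple and columnar epithelia, were lower by -4.18, -4.14 and -3.81 on the log2 scale, and Krt7 was at 38.8 to 344 CPM in members against 677 to 3522 CPM in the other cells. Krt23 was lower by -3.66, together with Tspan1 (-3.70), Cldn3 (-3.69), and Ltf, the secreted iron-binding protein lactoferrin, at -4.98. The suprabasal keratin genes Krt4 (2.09), Krt16 (2.42) and Krt6b (1.74) were higher. The basal keratin Krt14 was not low in members: it stood at 16162, 18724 and 4678 CPM in Cyto-ID Low and 15835, 16073 and 9831 CPM in Cyto-ID High members, against a mean of 8842 CPM in the other Krt13-high cells, and it was higher in 5 of 6 libraries. Krt15, another basal keratin, was lower by -2.08.

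**Figure D3:**
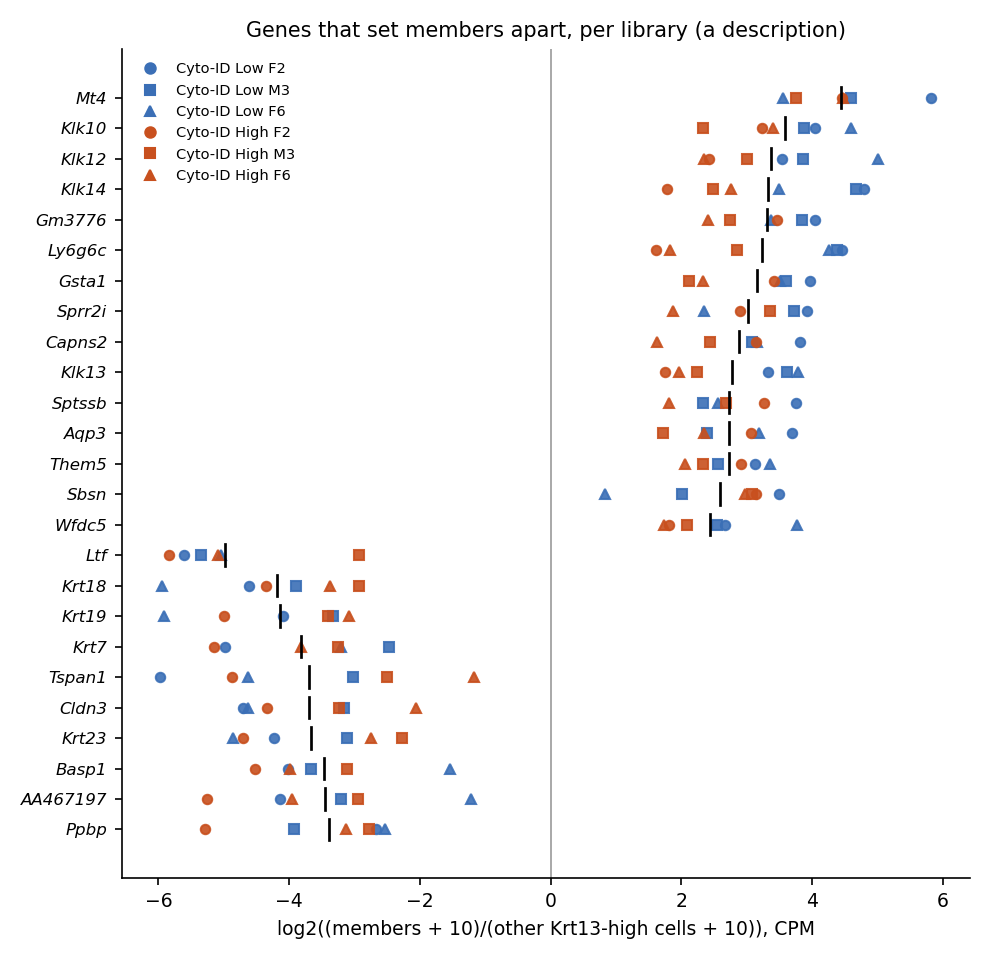
Log2((members + 10)/(other + 10)), with mean CPM, of described genes in each of the 6 libraries; points are libraries and black ticks are means over libraries. Genes such as Mt4 (mean 4.44) and Klk10 (3.58) lie right of 0 in every library, and Ltf (-4.98) and Krt18 (-4.18) lie left of 0 in every library.

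The remaining lists are read against the same shares over all 2346 genes, 14.0% higher and 27.4% lower. Of 11 innate defence genes at 50 CPM or more, 0 were higher and 7 lower in 6 of 6 libraries, with S100a8 (2.33) and S100a9 (2.41), held in the calcium protein list, higher on the mean. In that list of 19 genes, 4 were higher and 9 lower. Autophagy genes, which bear on the Cyto-ID dye, were higher in 0 and lower in 8 of 12, and lysosomal genes higher in 0 and lower in 4 of 11, the latter near the share over all genes. The autophagosome gene Map1lc3b was at 139 to 337 CPM in members and 315 to 972 CPM in the other Krt13-high cells.

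Members ranged widely along the score. The lowest member score was 0.923 and the highest cell just under the threshold scored 0.922, with 128 members within 0.1 above and 120 Krt13-high cells within 0.1 below, so the edge of the population is a line drawn through a continuum. A total of 20 members had 2 markers above 0, 197 had 3, 271 had 4, 322 had 5, 262 had 6 and 197 had all 7. Above the 98th percentile of the score lay 14, 10 and 0 members in Cyto-ID Low F2, M3 and F6 and 118, 134 and 151 in Cyto-ID High F2, M3 and F6. Compared with members between the 92nd and the 98th percentile, these carried more Klk14 (log2 difference 3.39), Serpinb12 (3.13), Sprr2i (3.07), Cnfn (2.69), Lor (2.49) and Ly6g6c (2.48), each higher in 5 of the 5 libraries that could be compared. They carried less Krt5 (-1.56), Krt15 (-1.34), Krt7 (-1.91), Ltf (-1.56) and Alox15 (-1.83). These are differences along the score that chose the cells and are given without a test. The median member score was 1.26 ± 0.205 (SD, n = 3) in Cyto-ID Low and 1.66 ± 0.102 (SD, n = 3) in Cyto-ID High libraries. Members were not matched on score in the comparisons between Cyto-ID groups below.

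Within members, the comparison of Cyto-ID High with Cyto-ID Low used 1 mean per gene and library, and tests were made with limma on log2(CPM + 10), with Benjamini-Hochberg adjustment over all genes tested. At adjusted p under 0.05, 1 of 5892 genes (0.0170%) passed: Aldh1a3, encoding a retinaldehyde dehydrogenase that makes retinoic acid. At unadjusted p under 0.05, limma gave 375 genes, 162 higher and 213 lower in Cyto-ID High. That balance depended on the scaling: it was 81 higher and 311 lower with plain CPM, and 689 higher and 77 lower with members thinned to 1000 UMIs, where the median log2 fold change of all genes moved to 0.35. Aldh1a3 was at 710 and 409 CPM in the members of Cyto-ID Low F2 and M3 (273 CPM in the 9 cells of F6) and at 42.5, 44.6 and 81.4 CPM in those of Cyto-ID High F2, M3 and F6. The groups did not overlap, as in 16.6% of the 5892 genes with all Cyto-ID High values below the Cyto-ID Low values and 6.62% with all above. The log2 fold change was -2.999 ± 0.36 (SE), with a limma adjusted p of 0.044. Aldh1a3 is also 1 of the 4 genes that define the Il33-type cells, which were more frequent in Cyto-ID Low organoids. They made up 8, 7 and 2 of the members in Cyto-ID Low F2, M3 and F6 and 1, 1 and 6 in Cyto-ID High F2, M3 and F6. With Il33-type and Sprr2f-type members left out, the log2 fold change was -2.05 with a limma adjusted p of 0.50. Il33-type cells are chosen partly on Aldh1a3 and are a larger share of Cyto-ID Low members, so leaving them out shrinks the difference by construction. Without Cyto-ID Low F2, Cyto-ID Low M3 or Cyto-ID High F2 the fold change was -2.68, -3.29 and -2.79 and the limma adjusted p 0.63, 0.12 and 0.38, with 2 residual degrees of freedom in place of 3.

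The replicate labels pair the libraries, since libraries with the same label deviated together, and a fit with the label as a block changed the counts. With the block, limma called 68 genes higher (1.15%) and 153 lower (2.60%) in Cyto-ID High members. Of the 68, 2 are the rule genes Calm4 and Krtdap, whose values chose the members, which leaves 66. Aldh1a3 was among the 153 (log2 fold change -3.27, limma adjusted p = 1.3e-12). That fit rests on the F2 and M3 pairs, as Cyto-ID High F6 has no partner and adds nothing to the fold change. It has 1 residual degree of freedom, and its spread comes mostly from all genes together (prior degrees of freedom 41.0). Its p-values are therefore read as those of 2 pairs with a shared spread, and a statement below that a gene passed with the block means no more than this.

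Lower genes in Cyto-ID High members that did not pass without the block included Alox15, a lipoxygenase gene, at 601 and 269 CPM in Cyto-ID Low F2 and M3 and 19.9, 39.6 and 64.5 CPM in the Cyto-ID High libraries. Its log2 difference was -2.998 ± 0.45 (SE), with a limma adjusted p of 0.105 (with the block -3.32, adjusted p = 2.4e-11). Krt20, a keratin gene of surface and columnar cells, stood at 183 and 135 CPM against 33.5, 35.4 and 41.1 CPM, and its log2 difference was -1.75 ± 0.27 (SE), with a limma adjusted p of 0.108 (with the block -1.82, adjusted p = 1.3e-06). Krt20 is another of the 4 genes that define the Il33-type cells: with Il33-type and Sprr2f-type members left out its log2 difference was -0.22 (limma adjusted p = 0.99), which the removal of Krt20-high cells lowers by construction. That of Alox15, which selects neither type, was -2.33 (limma adjusted p = 0.24). With the score threshold at the 95th percentile the log2 difference of Krt20 was -0.89. The actin-severing gene Scin (-1.69) and the phosphatase gene Dusp4 (-1.53) followed. Without Il33-type and Sprr2f-type members these were -1.12 and -0.96, and Scin was -1.01 at the 95th percentile.

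Among genes with higher values in Cyto-ID High members, the leading ones did not pass without the block either. For Mt4 the log2 difference was 2.18 ± 0.53 (SE), with a limma adjusted p of 0.41 (with the block 2.27, adjusted p = 1.6e-08), and its Cyto-ID High values of 2366 to 3945 CPM lay above the 315 and 1411 CPM of Cyto-ID Low. Leaving out Cyto-ID Low F2 gave 3.17 for Mt4 and leaving out Cyto-ID Low M3 gave 1.21. Depp1, a target of FOXO factors, was at 19.7 and 23.0 CPM against 66.1, 98.3 and 75.5 CPM, a log2 fold change of 1.59 (limma adjusted p = 0.24; with the block 1.61, adjusted p = 1.3e-05), and 0.91 with the score threshold at the 90th percentile. The tubulin gene Tubb3 (1.29), the RNA polymerase II subunit gene Polr2i (1.18) and the small nucleolar RNA host gene Snhg12 (1.23) had higher values as well, with limma adjusted p of 0.33, 0.40 and 0.41.

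**Figure D4:**
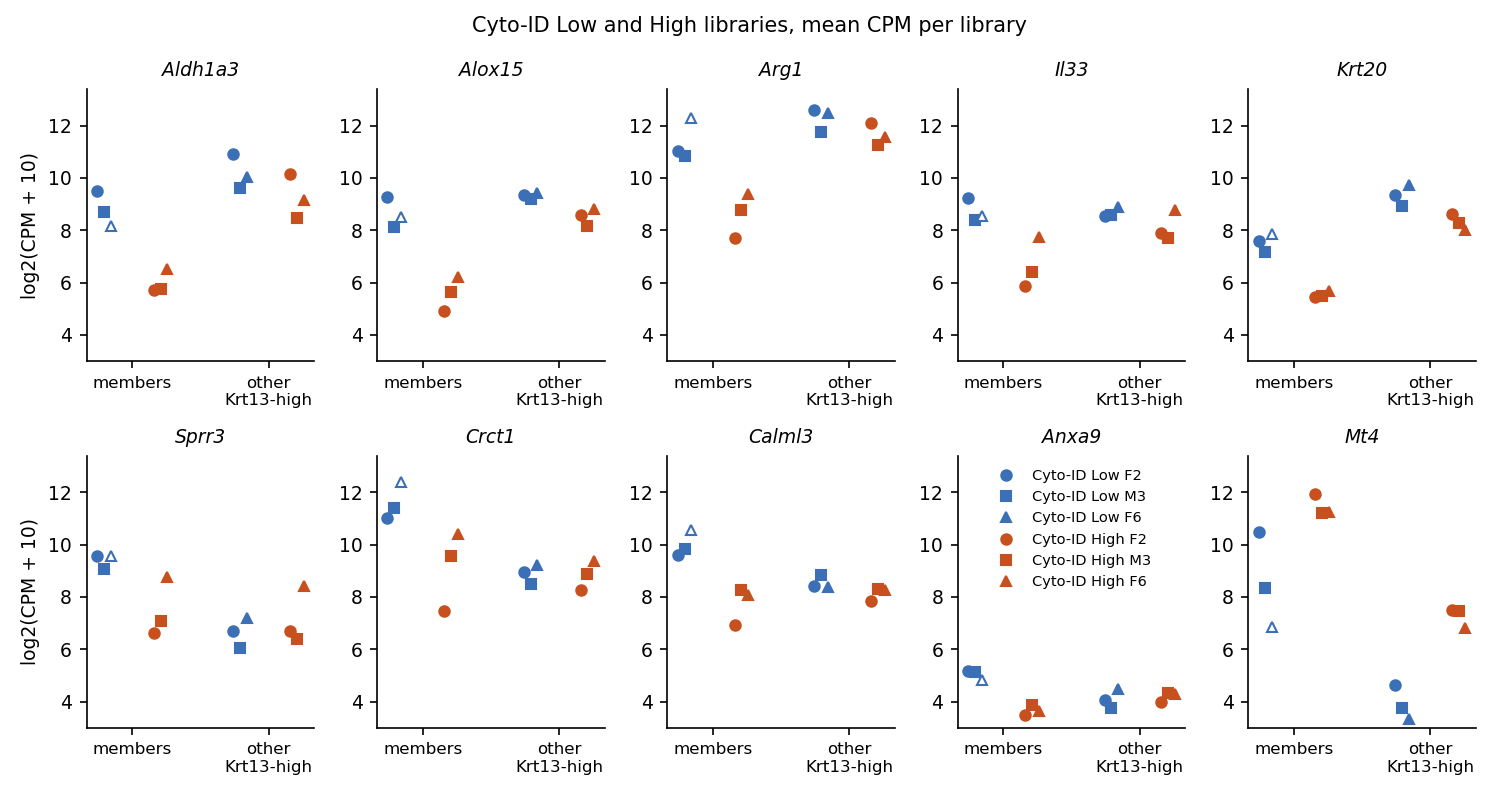
Mean level, as log2(CPM + 10), of 10 genes in members and in other Krt13-high cells of each library, by Cyto-ID group; the open point is the mean of the 9 members of Cyto-ID Low F6, which was left out of the fits whose results are given here. Aldh1a3 in members is at 409 and 710 CPM in the Cyto-ID Low libraries fitted and at 42.5 to 81.4 CPM in the Cyto-ID High libraries.

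The 8268 other Krt13-high cells gave the same contrast side by side. Limma called 0 of 6471 genes (0.00%) there, with 41 at unadjusted p under 0.05. With the block it called 60 higher (0.927%) and 42 lower (0.649%), the 60 including the rule genes Sprr1b, Krtdap, Gm94 and Fam25c. Aldh1a3 was at 1906 and 767 CPM there in Cyto-ID Low F2 and M3 (1028 CPM in F6). In Cyto-ID High F2, M3 and F6 it was at 1137, 346 and 567 CPM. Its log2 fold change in these cells was -0.94 without the block and -0.90 with it (limma adjusted p = 0.0073 with the block). Whether the Cyto-ID difference itself differed between members and the other Krt13-high cells was tested on the per-library difference between the populations. Of 6791 genes, 2 passed (0.0295%), both with a more negative difference in members, and limma gave 297 at unadjusted p under 0.05. With the block, 35 genes (0.515%) had a more positive and 104 (1.53%) a more negative difference in members, the rule gene Krtdap among the 104. Aldh1a3 did not pass the test of the difference without the block (-2.06, limma adjusted p = 0.999). It passed with the block (-2.36, limma adjusted p = 1.5e-06).

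Sprr3, an envelope precursor abundant in esophagus, was 1 of the 2 genes that passed the test of the difference without the block. In members it was at 744 and 521 CPM in Cyto-ID Low F2 and M3 (747 CPM in the 9 cells of F6) and at 88.2, 124 and 424 CPM in Cyto-ID High F2, M3 and F6. In the other Krt13-high cells it was at 93.2 and 56.1 CPM in Cyto-ID Low F2 and M3 (136 CPM in F6) and at 95.0, 73.0 and 330 CPM in Cyto-ID High. The groups were apart in members and overlapped in the other cells. The difference of the log2 differences was -2.55 ± 0.32 (SE), with a limma adjusted p of 0.031 and of 2.8e-20 with the block. Without Cyto-ID High F2 or Cyto-ID High F6 the adjusted p was 0.073 and 0.22.

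Anxa9, an annexin gene, was the other. It was low throughout, at 25.9 and 25.1 CPM in members of Cyto-ID Low F2 and M3 (18.1 CPM in F6) and at 1.14, 4.47 and 2.53 CPM in Cyto-ID High F2, M3 and F6. The other Krt13-high cells held 6.71 and 3.40 CPM (12.1 CPM in F6) against 5.96, 10.3 and 9.76 CPM. The difference of differences was -1.75 ± 0.24 (SE; limma adjusted p = 0.033), and without Cyto-ID High F2, M3 or F6 in turn the adjusted p was 0.073, 0.093 and 0.24. The next genes by p did not pass without the block, among them the aldehyde dehydrogenase gene Aldh1a7 (-1.69, limma adjusted p = 0.058), the protease inhibitor gene Spink5 (-1.63), the calmodulin-like gene Calml3 (-1.41) and the alarmin gene Il33 (-1.62). The rest of the 10 lowest p-values belonged to Grid2ip (-1.83), Larp1 (1.21), Gsn (-1.16) and Mndal (-1.05). Larp1 was the only gene of the 10 with a more positive difference in members.

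Gene lists by role are read from the fit with the block, against its background of 1.15% higher and 2.60% lower. The lists were chosen with earlier results of these data known, so the shares are descriptions and not independent evidence. Without the block Aldh1a3 was the only listed gene that passed. Of 23 cornified envelope precursors tested, 14 passed as lower in Cyto-ID High members and 0 as higher: Cnfn, Crct1, Lce3a, Lce3b, Lce3c, Lce3e, Sprr1a, Sprr2a3, Sprr2d, Sprr2f, Sprr3, Evpl, Ppl and Scel. The list's median log2 fold change was -0.998 with the block and -0.86 without it, against 0.015 and -0.0045 over all 5892 genes. Crct1, a cysteine-rich gene of the epidermal differentiation complex, was at 2092 and 2706 CPM in Cyto-ID Low F2 and M3 and at 165, 745 and 1332 CPM in Cyto-ID High (log2 fold change -2.61, limma adjusted p = 3.3e-09 with the block and 0.71 without). Over the 5 libraries the groups overlapped in 7 of the 14 called envelope genes: Cnfn, Lce3a, Lce3b, Lce3c, Lce3e, Sprr1a and Sprr2d. In the other 7 they did not. Of all 5892 genes, called or not, 16.6% had all Cyto-ID High values below all Cyto-ID Low values. Lce3c had 32.6 and 91.0 CPM in Cyto-ID Low against 16.1, 21.2 and 191 CPM in Cyto-ID High, where F6 was the highest library. In the other Krt13-high cells the block gave 1 of 17 envelope genes lower and 0 higher (background 0.649% and 0.927%), and in the test of the difference with the block 11 of 25 were more negative in members (background 1.53%). With members thinned to 1000 UMIs, where the median of all genes rose to 0.35, Lce3b was at 0.49 and Lce3c at 1.00, which is 0.14 and 0.65 above that median. The thinned fit has no block, so Cyto-ID High F6 adds to its fold changes, unlike in the fit with the block.

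Of 21 cross-linking enzymes and proteases, 7 passed as lower and 0 as higher: Tgm1, Klk12, Klk13, Klk14, Tmprss11a, Tmprss11b and Tmprss11d. Klk14 was at 301 and 363 CPM against 30.7, 110 and 78.1 CPM, a log2 fold change of -2.18 with the block. Thinned and without the block, Tmprss11b was at 0.24, still below the median of all genes. Among 19 protease inhibitors 3 passed as lower (Serpinb11, Spink5 and Spint1), and among 21 calcium-binding proteins 8 did, including S100a8, S100a9, Calml3 and Anxa1; in neither list did a gene pass as higher. The lists leave out the rule genes, Calm4 among them. Anxa1, an abundant annexin gene, was at 5980 and 4213 CPM against 1520, 1033 and 3053 CPM. Calml3, a calmodulin-like gene of stratified epithelia, was at 765 and 909 CPM against 113, 299 and 261 CPM.

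Metallothioneins, which bind zinc and copper, passed as higher in 4 of 4 tested with the block. They did so in 2 of 3 tested in the other Krt13-high cells, and 0 of 4 passed the test of the difference between the populations, with or without the block. Mt1 was at 689 and 541 CPM in Cyto-ID Low F2 and M3 and at 1439, 910 and 1637 CPM in Cyto-ID High F2, M3 and F6. Mt2 (229 and 51.0 against 509, 142 and 371 CPM) and Mt3 (52.9 and 2.28 against 90.7, 42.0 and 45.9 CPM) overlapped between the groups, and both were lowest, among the 5 fitted libraries, in Cyto-ID Low M3. Of 25 glutathione and xenobiotic enzyme genes, 4 passed as higher (Gstm1, Gstm2, Gpx2 and Ces1h) and Gsto1 as lower. In the other Krt13-high cells 7 of 24 passed as higher and 0 as lower with the block. In the test of the difference between the populations 0 of 25 passed, with or without the block.

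Each keratin list gave 1 call: 1 of 4 basal, 1 of 4 suprabasal and stress, 1 of 1 skin-type and 1 of 6 simple and atypical keratins. Krt20 in the last list, with values given above, passed as lower. Krt17, a stress and basal keratin gene, passed as higher with 257 and 377 CPM against 824, 541 and 325 CPM, which overlapped. Krt10 passed as higher, with 55.2 and 24.3 CPM against 118, 54.2 and 79.9 CPM, which also overlapped, and Krt4 as lower, with 6634 and 6598 CPM against 1961, 4345 and 2180 CPM. Of 11 desmosome genes only Dsc3 passed, as higher. Of 20 barrier lipid genes only Alox15 passed, as lower. In retinoid handling, 12 genes tested, Adh7 passed as higher, and Aldh1a3 and Aldh1a7 were among those that passed as lower.

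Innate defence genes passed as lower in 5 of 15, with Il1a, Il33, Defb14, Arg1 and Pglyrp1, and as higher in 1, Ltf. Arg1, encoding arginase, was at 2106 and 1829.5 CPM against 199, 428 and 664 CPM, and Il33 at 586 and 323 CPM against 48.7, 75.7 and 203 CPM. Ltf was at 119 and 82.6 CPM against 101, 503 and 36.2 CPM, which overlapped. It was lower in Cyto-ID High in the F2 pair (119 against 101 CPM) and higher in the M3 pair (82.6 against 503 CPM). The 2 pairs behind its call thus disagree in direction. Thinned and without the block, Defb14 was at 0.24, below the median of 0.35 over all genes. Of 9 Ly6 family genes 4 passed as lower (Ly6e, Ly6g6c, Lynx1 and Psca) and of 31 transcription factors 4 (Hopx, Elf5, Prdm1 and Nfe2l3). Thinned and without the block, Lynx1 and Hopx lay 0.84 and 0.62 above that median. Under plain CPM and summed UMIs, also without the block, every listed gene called with the block had the same sign. All 4 Il33-type markers and both Sprr2f-type markers tested passed as lower, and these are the genes that define populations with a higher mean share in Cyto-ID Low organoids.

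Autophagy genes passed as lower in 2 of 24, Wipi1 and Bnip3, and as higher in 0. Wipi1, which acts in autophagosome formation, was at 57.5 and 59.7 CPM in Cyto-ID Low F2 and M3 and at 19.6, 27.0 and 16.9 CPM in Cyto-ID High F2, M3 and F6. Map1lc3b gave 293 and 330 CPM against 297, 337 and 199.5 CPM, with a log2 fold change of -0.08 (limma adjusted p = 0.98). Of 19 lysosomal genes only Ctsl passed, as lower, and of 4 replication genes only Ccnd2, as higher. None of 4 CDK inhibitor genes and none of the 2 genes tested from the interferon-induced list passed in limma, with or without the block. That interferon-induced list is not complete: Ifi204, Ifi209 and Mndal are outside it and passed as lower with the block.

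**Figure D5:**
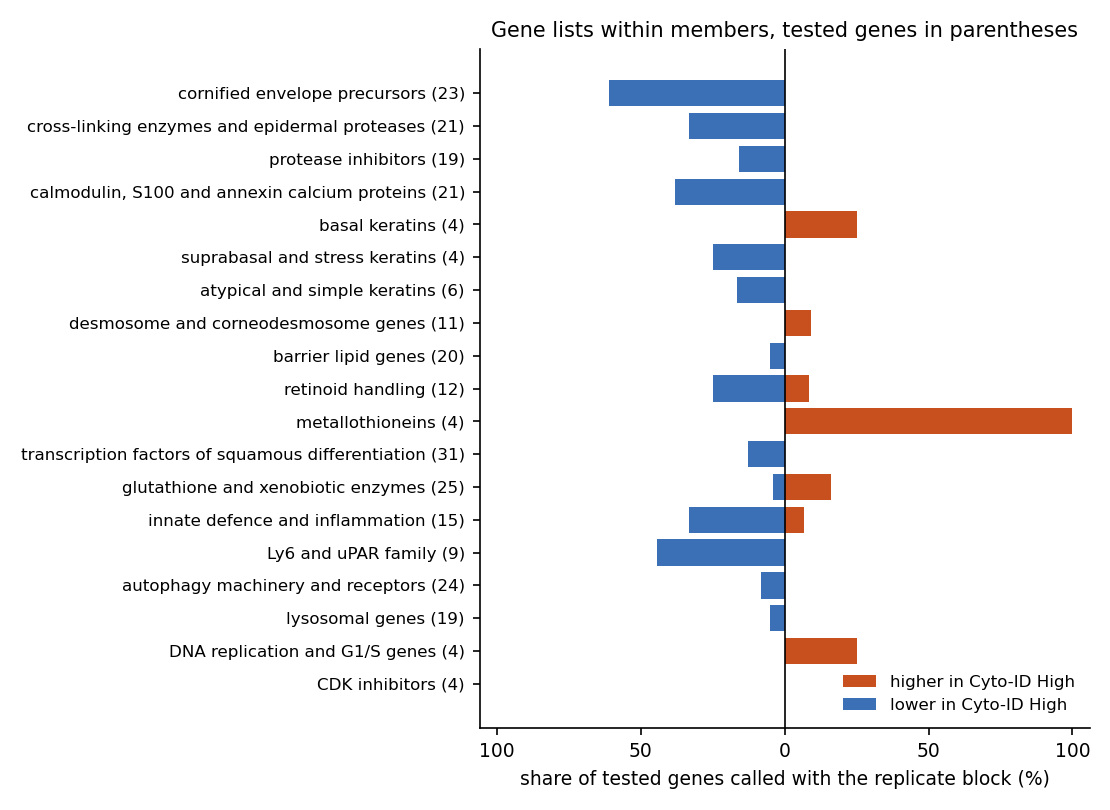
Percent of tested genes in each list with at least 4 tested that passed limma with the replicate block as higher or lower in Cyto-ID High members; the number tested is in parentheses. Cornified envelope precursors have 14 of 23 lower and 0 higher, metallothioneins 4 of 4 higher, against 2.60% lower and 1.15% higher over all genes. The lists were chosen with earlier results of these data known.

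Depth and quality of members are given beside these results. Median UMIs per member were 14688, 11657 and 4103 in Cyto-ID Low F2, M3 and F6 and 15445, 3896.5 and 2617 in Cyto-ID High F2, M3 and F6, with group means that did not differ beyond the spread (exact permutation test, two-sided, p = 0.70; the smallest p that 3 against 3 allows is 0.10). The same exact permutation test gave p = 0.70 for median detected genes, 2125 ± 818 (SD, n = 3) in Cyto-ID Low and 1647 ± 1082 (SD, n = 3) in Cyto-ID High. The exact permutation test gave p = 0.40 for the median mitochondrial share, 1.23% ± 0.418 (SD, n = 3) and 1.67% ± 0.706 (SD, n = 3). Members of Cyto-ID Low F2 and M3 were deeper than those of Cyto-ID High M3 and F6 but not than those of Cyto-ID High F2. With members thinned to 1000 UMIs the log2 difference between the groups was -2.81 for Aldh1a3 (limma adjusted p = 0.057), -2.14 for Alox15 and -1.05 for Krt20. The named higher genes all rose with thinning, to 2.63 for Mt4, 2.63 for Depp1, 1.61 for Tubb3, 2.17 for Polr2i and 2.97 for Snhg12. The median of all genes moved to 0.35 there. No doublets were removed, and cells above the 95th percentile of UMIs of their library were 11.1 to 28.8% of members in Cyto-ID Low and 13.5 to 21.0% in Cyto-ID High libraries.

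Markers of other cell types were close to 0 in members. Of 7 fibroblast genes 6 had no UMI in any library, Col1a1, Col3a1 and Dcn among them, and their sum stayed at 0 in Cyto-ID Low and reached 0.161 CPM in Cyto-ID High members. Of 10 immune genes 8 had none, including Ptprc, and the sum, mostly Cd68, was 9.85 to 29.0 CPM in Cyto-ID Low and 6.38 to 14.2 CPM in Cyto-ID High members. Of 7 columnar genes 5 had none, with sums of 0 to 0.801 CPM and 0 to 3.32 CPM. Of 5 endothelial genes 4 had none. The neural list summed to 0 to 7.42 CPM in Cyto-ID Low and 16.9 to 30.4 CPM in Cyto-ID High members, all but a small part of it Tubb3.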

How the data were processed

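Single-cell tables of 6 libraries were used. Per the submitters' processing notes the tools include Cell Ranger 6.0.0 and Seurat 4 with mm10 (GRCm38); their parameters are not given in the sources used here. The deposited values are natural logs, ln(1 + 10000 x UMIs / total of the cell); whole UMI counts were recovered within 1e-06 for 100% of values, and CPM was computed from them. No doublet caller was run and no doublets were removed.

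The members, gene lists and tests were chosen with earlier results of these data known. Each library gave 1 mean CPM per gene and population, from at least 20 members. A count test had been planned for a deposit of counts; since the deposited unit is a natural log, limma 3.58.1 (R 4.3.3, mean-variance trend) was run on log2(mean CPM + 10) after TMM scaling (30% of log ratios and 5% of levels trimmed), for genes whose mean reached 10 CPM, with Benjamini-Hochberg adjustment over all genes. Tables were handled in Python 3.11.15 with numpy 2.4.6, pandas 2.3.3 and scipy 1.17.1. The limma step was tested on simulated data.

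In the other Krt13-high cells same-labelled libraries deviated together from their group means (correlation over genes 0.827 for F2, 0.666 for M3 and 0.268 for F6), so the replicate block is printed beside results it changes. The pairing comes from these correlations and the shared labels. In members the values were 0.320 for F2 and 0.391 for M3, but with 2 Cyto-ID Low libraries these are not independent, and Cyto-ID Low F2 with Cyto-ID High F6 gave 0.209.

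Named genes followed a rule: the rule genes; for members against other Krt13-high cells the 15 highest and 10 lowest of those with 1 sign in 6 of 6 libraries and at least 50 CPM; for Cyto-ID High against Low the 15 largest changes per direction at 20 CPM or more among genes that passed, or the 5 lowest p-values where fewer than 5 did; and the 10 lowest p-values of the test of the difference. Not every gene that the rule gave is named in the text. Genes from the fixed lists were named for their roles after their values were seen. Alternatives changed the pseudocount, low-value filter, scaling, depth, percentile, gate, score, libraries and block.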

Additional observations from a re-analysis of the deposited data

Results flagged for a closer look

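For 2 genes the difference between Cyto-ID High and Cyto-ID Low libraries itself differed between members and the other Krt13-high cells, tested with limma on the per-library difference over 5 libraries and adjusted over 6791 genes. Sprr3 had a difference of log2 differences of -2.55 (adjusted p = 0.031): in members the 3 Cyto-ID High libraries lay below the 2 Cyto-ID Low libraries, and in the other cells the groups overlapped. Anxa9 had -1.75 (adjusted p = 0.033), at levels of 1.14 to 25.9 CPM in members. Both calls depended on the settings: the adjusted p was 0.23 for Sprr3 and 0.12 for Anxa9 with a pseudocount of 1 CPM, and 0.78 for both with Cyto-ID Low F6 kept. The call was lost in 5 of 10 alternatives for Sprr3 and in 6 of 8 for Anxa9, with the direction kept in each.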

How the results depend on the processing

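The higher share of members in Cyto-ID High organoids kept its direction for every replicate label under all alternatives run, with differences of 8.06 to 9.61 percentage points when 1 library was left out. It was 6.77 points at the 95th percentile, 13.0 with no Krt13 gate and 14.9 with 1000 or more genes per cell, against 8.69. Leaving out the deepest cells, leaving out Il33-type and Sprr2f-type members, and keeping Cyto-ID Low F6 in the fits were chosen after seeing the data.

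Counts of called genes depended on the settings. Within members limma called 1 gene; it called 0 with a pseudocount of 1 CPM, with no filter, with members thinned to 1000 UMIs, at the 90th or 95th percentile, with the score without Calm4 and Krtdap, without Il33-type and Sprr2f-type members, and with Cyto-ID Low F6 kept. It called 2 when genes needed 1 CPM in 3 libraries and 2 with plain CPM. With 1 library left out the count ranged from 0 to 7 (7 without Cyto-ID High M3, 2 without Cyto-ID High F6). With the replicate block it was 221, against 102 in the other Krt13-high cells and 139 for the difference between the populations. In the other Krt13-high cells limma called 0 genes, and 1 with Cyto-ID Low F6 kept. For the difference the count of 2 became 0 with a pseudocount of 1 CPM, with the filter of 1 CPM in 3 libraries and with Cyto-ID Low F6 kept, and ranged from 0 to 4 with 1 library left out (0 without Cyto-ID High F2 or F6, 1 without Cyto-ID High M3, 4 without Cyto-ID Low M3). Where an arm was left with 1 library, that library is assumed to vary like the others. The cause of these shifts was not tested. The 20 named gene results had the same direction in 287 of 287 alternatives in which the gene was tested. These genes were picked by their p-values in the main fits, and the alternatives reuse the same libraries. The shared direction is therefore not independent evidence. The limma adjusted p ranged from 1.3e-12 to 0.73 for Aldh1a3, from 2.8e-20 to 0.78 for Sprr3 and from 1.1e-09 to 0.78 for Anxa9. Thinning moved the median log2 fold change of all genes to 0.35 and keeping Cyto-ID Low F6 to 0.23.

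Limits are the 43, 73 and 9 members in Cyto-ID Low organoids, the 2 Cyto-ID Low libraries in the fits, and replicates whose origin the labels do not give.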
